A study of Mus musculus with 12 samples.

Results

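The mitosis and spindle genes were chosen by name, with earlier results of these data known. They are 46 genes whose products carry a cell through division, each read from its probe set of highest mean level across 12 arrays. Of these, 45 had a probe set that names 1 gene, among 18193 genes named in all, and all 45 were among the 15493 genes tested. Every array put each of the 45 above the level of 3.32 used to set dim genes aside, so none entered the tests through its high group alone. Ccnb1, the gene of cyclin B1, had no probe set that names it alone, so it has no value here and is named only. By role the list holds 9 regulators of mitotic entry, 10 genes of the spindle checkpoint, anaphase and cohesion, 4 genes of the chromosomal passenger complex and 8 of the centromere and kinetochore. It also holds 10 kinesins and spindle binding proteins, 3 genes of cytokinesis and 2 of chromosome structure.

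RNA came from whole tumours that 344SQ cells, a mouse lung adenocarcinoma line, formed under the skin of the right flank in female 129sv/ev mice. The cells were either the parental line (Sen) or a derivative of it resistant to anti-PD-1 (Res), an antibody against PD-1, the receptor through which T cells are held in check. Parental tumours given control IgG, parental tumours given anti-PD-1, resistant tumours given control IgG and resistant tumours given anti-PD-1 formed 4 groups of 5 mice, each measured on 3 arrays. Antibodies were dosed at 10 mg/kg on days 4 and 7 and tumours were taken on day 11. The labels name 1 resistant derivative, so resistance and any other trait of that derivative cannot be told apart. The labels do not say which mice lie behind an array, and p-values therefore measure only the spread between these arrays, whose number limits the precision.

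As background, cyclin A and cyclin B with the kinase Cdk1 start mitosis, kinetochores built on centromeres tie chromosomes to spindle microtubules, and the spindle checkpoint delays anaphase until all are attached. The anaphase ubiquitin ligase with its activator Cdc20 then destroys cyclin B and securin, which frees separase to open cohesin rings. Kinesin motors shape the spindle and the cell pinches in at its middle. Transcripts of these genes accumulate in late G2 and mitosis, so in bulk tumour RNA they are widely read as a mark of cycling cells. In such samples fewer dividing cells and less RNA per cell cannot be told apart.

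Values are log2 levels, on which a difference of 1 is a 2-fold change, and each adjusted p is that of limma over all genes tested, with a gene called where it was under 0.05. On the first principal components (48.5% and 21.6% of the variance) parental IgG replicate 1 and parental anti-PD-1 replicate 3 stood apart from the other arrays. Parental anti-PD-1 replicate 3 had the highest mean of the skeletal muscle, fibroblast, endothelial, macrophage, neutrophil, B cell and keratinocyte marker lists. Muscle markers, all 20 tested, ran from 6.40 to 10.85 on parental and from 6.05 to 9.39 on resistant arrays. Under anti-PD-1 alone they ran from 9.06 to 10.85 on parental and from 6.05 to 8.65 on resistant arrays, without overlap. Epithelial markers, 17 of 18 tested, ran from 7.93 to 8.80 on parental and from 7.75 to 7.86 on resistant arrays, without overlap and lower on resistant arrays. Whether the share of tumour cells differed was not tested. T and NK cell markers, 17 of 20 tested, ran from 4.46 to 6.06 on parental and from 4.41 to 5.02 on resistant arrays. The signal of Gapdh probe sets at the 3 prime end minus that at the 5 prime end, a sign of RNA integrity, lay between 0.14 and 0.38 on parental arrays. On resistant arrays that difference lay between -0.03 and 0.09, again without overlap.

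**Figure D1:**
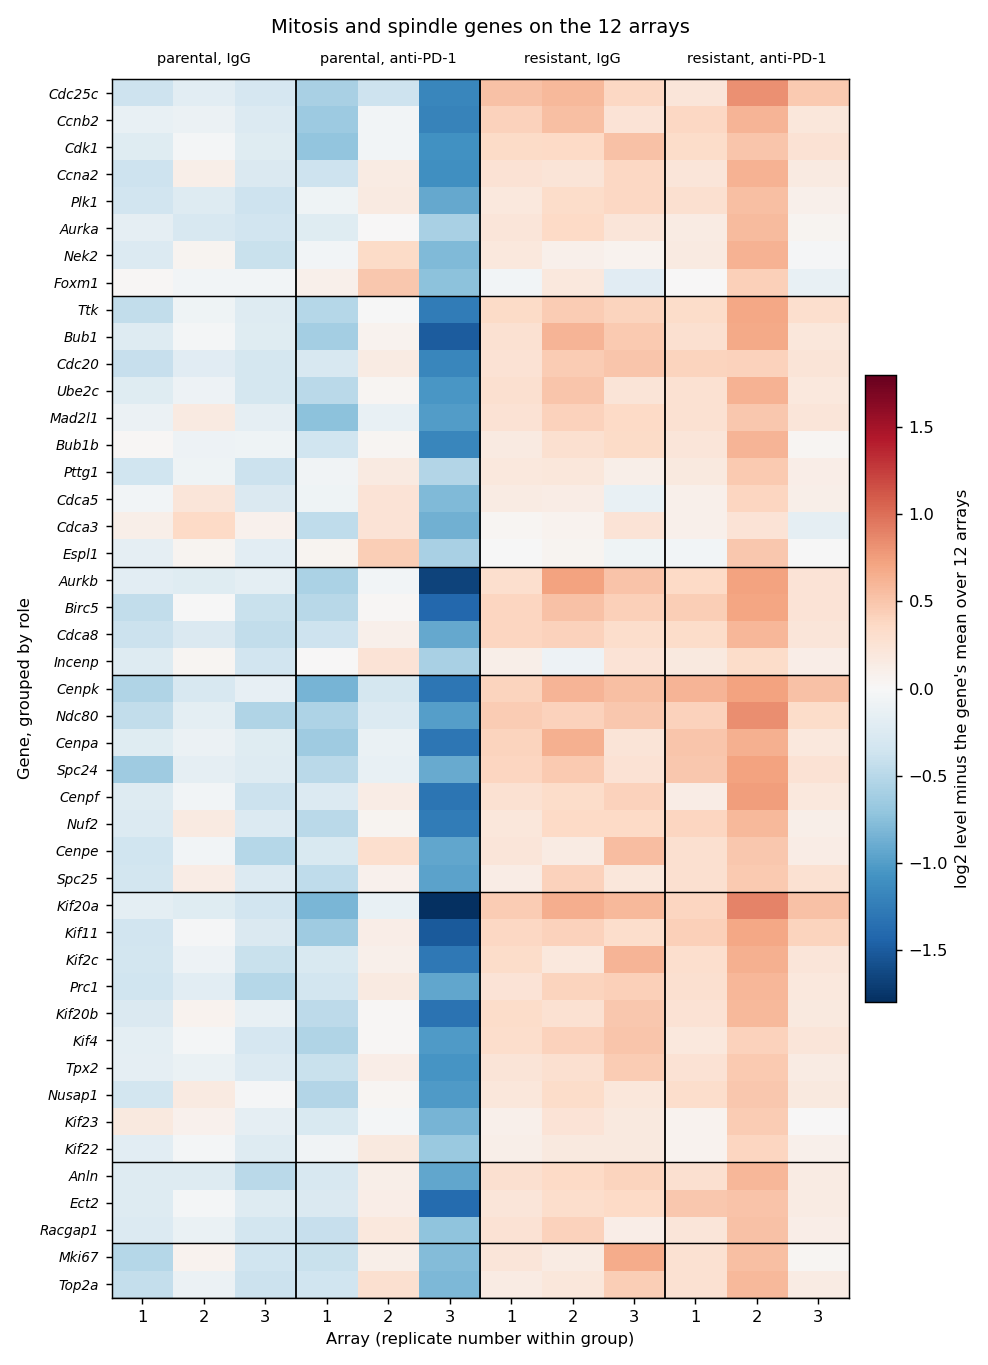
Log2 level minus the gene's own mean over 12 arrays, for the 45 measured mitosis and spindle genes (rows, by role) on each array (columns, by group); red is above and blue below the gene's mean. The parental anti-PD-1 replicate 3 column is the lowest for all 45 genes and the resistant columns are mostly red.

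Promoter letters are shown first because many of these genes share elements that the choice of genes did not use. The CHR (cell cycle genes homology region) is an element bound by MuvB complexes such as DREAM, and the CCAAT box is bound by NF-Y. RefSeq promoters of build GRCm38.p6, each 250 bases before to 50 bases after a start site, were found for 38 of the 46 genes, which had 42 promoters. Both strands were searched for CCAAT, for the CHR forms TTTGAA and TTCGAA, and for GCGGGAA, an E2F site form, none of which contains another. A CHR form was in 73.8% of member promoters and in 19.2% of all 32841 promoters of that length. Within 50 bases of the start site the shares were 69.0% and 5.3%. The CCAAT box was in 76.2% against 37.4%, at least 2 CCAAT boxes in 50% against 11.7%, and a CCAAT box together with a CHR form in 61.9% against 7.52%. The E2F form was in 2.38% against 4.6%. Such matches describe letters in these windows and are not evidence that a factor binds there.

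A CHR form is shown for genes followed below, each in a 30-base stretch of GRCm38.p6 read so that the element runs 5′ to 3′, with its letters in capitals. The Cdca5 stretch holds another CHR form, left in lower case, ahead of the one in capitals. The 6 first shown belong to genes called between the lines and the last 3 to genes that were not, a choice made after the values were seen. The stretches lie at chr10:69352910-69352939 (minus strand) for Cdk1, chr4:118437344-118437373 (minus) for Cdc20, chr19:37376351-37376380 (minus) for Kif11, chr11:99024195-99024224 (plus) for Top2a and chr17:71526811-71526840 (plus) for Ndc80. They lie at chr5:30666890-30666919 (plus) for Cenpa, chr15:102296254-102296283 (plus) for Espl1, chr6:124830194-124830223 (plus) for Cdca3 and chr19:6085076-6085105 (plus) for Cdca5.
Cdk1: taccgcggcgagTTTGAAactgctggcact
Cdc20: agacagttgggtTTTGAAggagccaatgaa
Kif11: ccgcgcctcaatTTTGAAaaatggagacga
Top2a: tccctagtttcaTTTGAAcctttatctagc
Ndc80: aacccaaggcggTTTGAAttttaaagtttc
Cenpa: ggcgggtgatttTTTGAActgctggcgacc
Espl1: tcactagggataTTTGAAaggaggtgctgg
Cdca3: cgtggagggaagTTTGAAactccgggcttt
Cdca5: gcaatttgaacgTTTGAAgcagcaaagttc

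Complete upstream stretches are shown for the 4 genes with the largest difference between the lines that have a listed promoter, with CCAAT boxes and CHR forms in capitals, as ATTGG and TTCAAA where they lie on the other strand. Each is the 250 bases before a start site, on the gene's strand, at chr13:104228361-104228610 (plus) for Cenpk, chr17:71526858-71527107 (minus) for Ndc80, chr11:117848987-117849236 (plus) for Birc5 and chr19:37376132-37376381 (plus) for Kif11. Cenpk has 3 listed promoters, of which 1 is shown. Kif11 holds 1 CCAAT box and 1 CHR form, Cenpk 1 CCAAT box, and no capital letter falls in the Ndc80 and Birc5 stretches. The CHR form of Ndc80 lies after the start site, in the 30-base stretch above.
Cenpk: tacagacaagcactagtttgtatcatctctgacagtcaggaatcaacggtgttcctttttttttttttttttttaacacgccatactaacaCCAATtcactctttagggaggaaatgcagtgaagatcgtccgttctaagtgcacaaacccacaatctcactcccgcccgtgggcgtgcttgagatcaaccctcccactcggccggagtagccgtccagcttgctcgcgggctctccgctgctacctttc
Ndc80: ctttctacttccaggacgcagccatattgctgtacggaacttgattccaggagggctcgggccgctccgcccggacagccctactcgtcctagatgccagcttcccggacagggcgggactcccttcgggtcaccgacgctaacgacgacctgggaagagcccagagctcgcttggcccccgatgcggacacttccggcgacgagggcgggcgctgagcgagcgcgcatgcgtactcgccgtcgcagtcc
Birc5: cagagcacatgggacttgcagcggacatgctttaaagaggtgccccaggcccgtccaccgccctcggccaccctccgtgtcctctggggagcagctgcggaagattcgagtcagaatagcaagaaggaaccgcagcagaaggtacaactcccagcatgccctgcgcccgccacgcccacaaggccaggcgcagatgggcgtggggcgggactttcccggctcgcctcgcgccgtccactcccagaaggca
Kif11: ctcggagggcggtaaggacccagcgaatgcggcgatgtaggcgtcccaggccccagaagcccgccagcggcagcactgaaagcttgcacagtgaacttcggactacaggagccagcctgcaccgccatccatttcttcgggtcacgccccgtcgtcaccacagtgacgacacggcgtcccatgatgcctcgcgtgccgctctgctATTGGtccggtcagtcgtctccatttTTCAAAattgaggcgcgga

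Resistant tumours were first compared with parental tumours over both antibodies, 6 arrays against 6. Mitosis and spindle genes were higher in resistant tumours: 37 of 45 were called higher and 0 lower, where 25.2% of all genes tested were called higher, 15% lower and 40.3% in either direction. The median difference was 0.67 (range 0.08 to 1.17), all 45 were above 0, as were 62.0% of all genes, and over all genes the median was 0.08. For 27 of 45 every resistant array exceeded every parental array, as it did for 11.2% of all genes. All 8 genes of the centromere and kinetochore, all 3 of cytokinesis and both of chromosome structure were called. So were 8 of 10 kinesins and spindle binding proteins, 7 of 10 checkpoint and cohesion genes, 6 of 8 measured entry regulators and 3 of 4 passenger complex genes. Leaving out parental anti-PD-1 replicate 3 also gave 37 calls, beside 26.6% of all genes, with a median of 0.52, and 32 of the 37 called genes were called whichever array was left out.

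**Figure D2:**
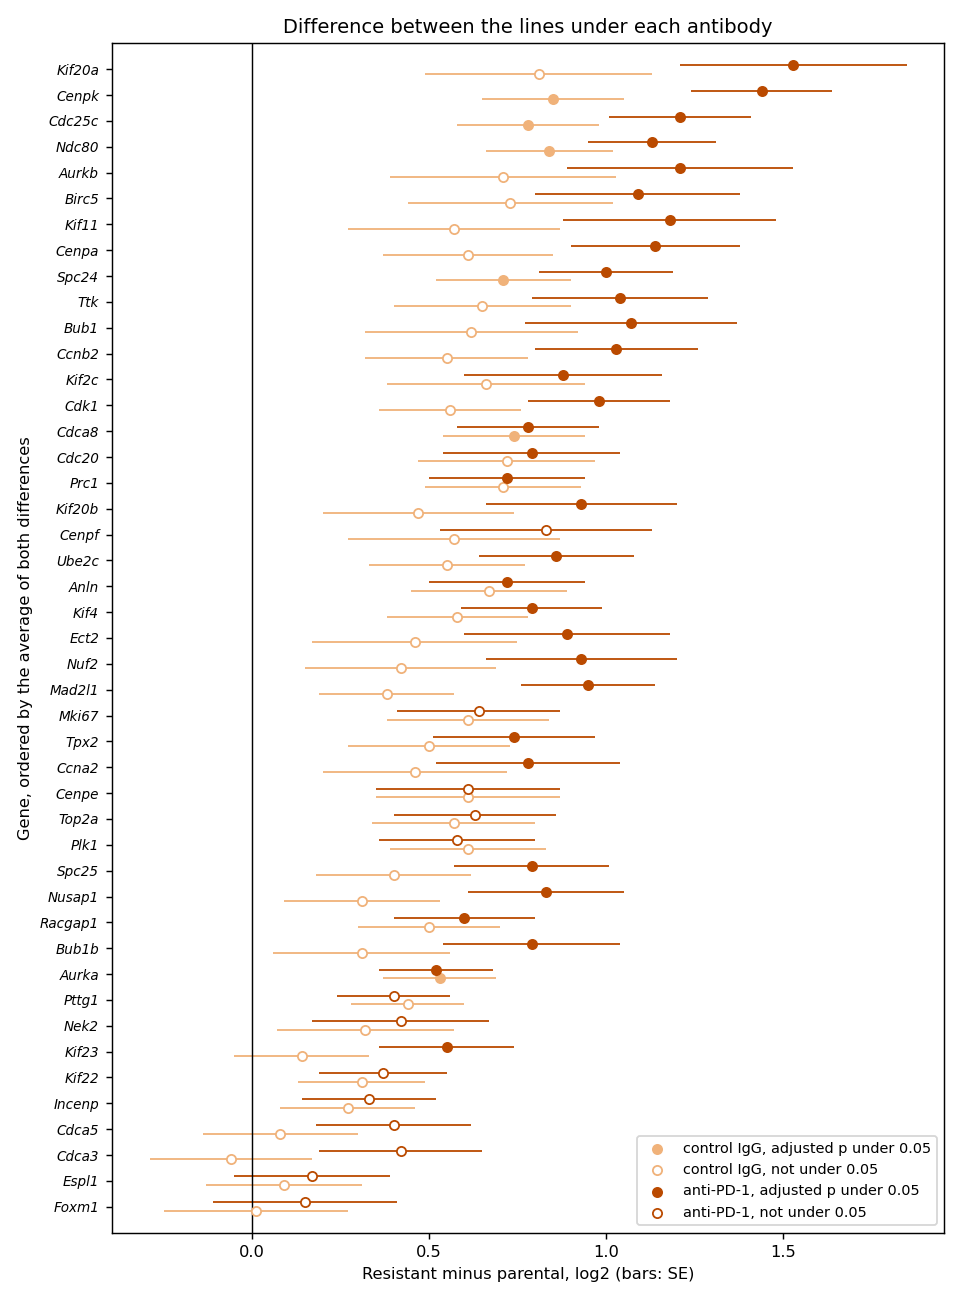
Difference between resistant and parental tumours in log2 (horizontal axis, bars are SE) for each gene under control IgG (light orange) and under anti-PD-1 (dark orange), with filled points where the adjusted p is under 0.05. Only Cdca3 under IgG, at -0.06, lies below 0, and 6 points are filled under IgG and 32 under anti-PD-1.

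Among the regulators of mitotic entry, Cdk1, the kinase that drives entry, measured 8.66, 8.84 and 8.66 in parental tumours under IgG and 8.16, 8.82 and 7.79 under anti-PD-1. In resistant tumours it measured 9.22, 9.23 and 9.40 under IgG and 9.20, 9.38 and 9.13 under anti-PD-1. All 6 resistant arrays lay above all 6 parental ones, and the line difference was 0.77 (SE 0.14, adjusted p = 0.00167). Cdc25c, a phosphatase that activates Cdk1, measured 5.34, 5.51 and 5.40 under IgG and 5.12, 5.34 and 4.53 under anti-PD-1 in parental tumours, and 6.23, 6.29 and 6.08 and then 5.92, 6.53 and 6.18 in resistant tumours. Its groups did not overlap either, and its difference of 1.00 (SE 0.14, adjusted p = 0.000296) was the largest of this role. The cyclin genes Ccna2 (0.62, adjusted p = 0.0205) and Ccnb2 (0.79, adjusted p = 0.00285) were called, as were the mitotic kinase genes Plk1 (0.60, adjusted p = 0.0115) and Aurka (0.53, adjusted p = 0.00358). Nek2, a centrosomal kinase gene, differed by 0.37 (adjusted p = 0.122) and was not called.

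Foxm1, the gene of a transcription factor that activates many of the other members, was the member with the smallest line difference. It measured 6.46, 6.40 and 6.39 in parental tumours under IgG, 6.54, 6.93 and 5.71 in parental tumours under anti-PD-1, 6.40, 6.63 and 6.24 in resistant tumours under IgG and 6.45, 6.88 and 6.31 in resistant tumours under anti-PD-1. These groups overlapped, with means of 6.42 ± 0.04 and 6.42 ± 0.20 (SD, n = 3) for the lines under IgG, and the average difference was 0.08 (SE 0.18, adjusted p = 0.748). Without parental anti-PD-1 replicate 3 the difference was -0.09 (adjusted p = 0.559). Its 2 other bright probe sets differed by 0.16 and 0.35, both under the members' median of 0.67.

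Spindle checkpoint genes, whose products hold back the anaphase ubiquitin ligase until chromosomes attach, were all called: Bub1 by 0.84, Bub1b by 0.55, Mad2l1 by 0.66 and the kinase gene Ttk by 0.85, with adjusted p from 0.00243 to 0.0281. Ttk measured 6.18, 6.55 and 6.39 under IgG and 6.12, 6.62 and 5.37 under anti-PD-1 in parental tumours, against 6.97, 7.08 and 7.03 and then 6.96, 7.33 and 6.93 in resistant tumours. No parental array reached a resistant one for Ttk on this probe set, while its other, dimmer probe set differed by 0.01. Cdc20, the activator that the checkpoint restrains, measured 9.21, 9.41 and 9.30 and then 9.33, 9.77 and 8.44 in parental tumours. In resistant tumours Cdc20 measured 9.88, 10.07 and 10.12 under IgG and 10.02, 10.04 and 9.85 under anti-PD-1, again above all parental arrays, a difference of 0.75 (SE 0.18, adjusted p = 0.0067). The gene of the ubiquitin carrier enzyme Ube2c differed by 0.70 (adjusted p = 0.00474) and Pttg1, the securin gene, by 0.42 (adjusted p = 0.0147).

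The remaining anaphase and cohesion genes did not separate the lines. Espl1, the gene of separase, measured 6.70, 6.91 and 6.68 and then 6.91, 7.31 and 6.28 in parental tumours, and 6.85, 6.91 and 6.79 and then 6.82, 7.35 and 6.85 in resistant tumours. Its highest parental and highest resistant values were alike, and its difference was 0.13 (SE 0.16, adjusted p = 0.531). Cdca3, the gene of trigger of mitotic entry 1, differed by 0.18 (SE 0.16, adjusted p = 0.4), and Cdca5, the gene of the cohesin protector sororin, by 0.24 (SE 0.16, adjusted p = 0.251). Without parental anti-PD-1 replicate 3 these 3 differences were -0.01, 0.05 and 0.09. All 3 genes carry a CHR form near the start site, as shown above, and over all members with listed promoters a CHR form was in 74.3% of 35 promoters of called genes and 83.3% of 6 promoters of genes not called.

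Of the chromosomal passenger complex, which corrects faulty attachments and guides cytokinesis, the genes of the kinase Aurkb (0.96), of survivin, Birc5 (0.91), and of borealin, Cdca8 (0.76), were called. Aurkb measured 6.12, 6.10 and 6.14 under IgG and 5.74, 6.26 and 4.64 under anti-PD-1 in parental tumours. In resistant tumours it measured 6.62, 7.04 and 6.82 and then 6.67, 7.03 and 6.56, so that all resistant arrays were higher (SE 0.22, adjusted p = 0.00613). Birc5 measured 8.25, 8.69 and 8.30 and then 8.20, 8.72 and 7.28 in parental tumours, against 9.09, 9.23 and 9.12 and then 9.14, 9.40 and 8.94 in resistant tumours, also without overlap (SE 0.20, adjusted p = 0.00471). Incenp, the scaffold of the complex, differed by 0.30 (SE 0.13, adjusted p = 0.0985) and was not called. Its other probe sets did not point 1 way, with differences of 0.45, 0.56, 0.08 and -0.45.

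Centromere and kinetochore genes had a median difference of 0.78, and this role was called in full. Cenpk, a subunit of the inner centromere network, measured 5.61, 5.86 and 6.0 and then 5.32, 5.84 and 4.85 in parental tumours, and 6.56, 6.77 and 6.70 and then 6.76, 6.88 and 6.68 in resistant tumours. The lowest resistant array lay clear of the highest parental one, and the difference of 1.14 (SE 0.14, adjusted p = 0.000149), a 2.21-fold level, had the smallest p among the members. Ndc80, which grips microtubules at the outer kinetochore, measured 6.03, 6.30 and 5.94 and then 5.92, 6.23 and 5.49 in parental tumours, against 6.94, 6.89 and 6.97 and then 6.90, 7.32 and 6.81 in resistant tumours. Its groups did not overlap and its difference was 0.99 (SE 0.13, adjusted p = 0.000212). The partners of Ndc80 in the same complex were called as well, Nuf2 at 0.67, Spc24 at 0.86 and Spc25 at 0.59. Cenpa, the histone variant that marks centromeres, differed by 0.88 (adjusted p = 0.00218), the kinetochore motor gene Cenpe by 0.61 (adjusted p = 0.0212) and Cenpf by 0.70 (adjusted p = 0.0225).

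Among kinesins, Kif20a, a motor of the central spindle, had the largest difference of all members. It measured 6.88, 6.84 and 6.71 under IgG and 6.23, 6.93 and 5.25 under anti-PD-1 in parental tumours, and 7.51, 7.71 and 7.64 and then 7.45, 7.95 and 7.59 in resistant tumours. Every resistant array was above every parental one, by 1.17 on average (SE 0.22, adjusted p = 0.002), a 2.25-fold level. Kif11, the motor that pushes spindle poles apart, measured 6.68, 7.01 and 6.77 and then 6.39, 7.15 and 5.51 in parental tumours, against 7.4, 7.44 and 7.34 and then 7.46, 7.72 and 7.42 in resistant tumours. It too did not overlap, with a difference of 0.88 (SE 0.21, adjusted p = 0.00793). The microtubule depolymerase gene Kif2c (0.77), the chromosome motor gene Kif4 (0.68), Kif20b (0.70), the spindle assembly factor gene Tpx2 (0.62), Nusap1 (0.57) and the microtubule bundler gene Prc1 (0.72) were called. Kif22 (0.34, adjusted p = 0.0541) and Kif23 (0.35, adjusted p = 0.059) lay just outside the threshold on the probe sets used. Other probe sets gave 0.74 and 0.82 for Kif22 and 0.70 for Kif23, with a dim one at 0.11.

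The cytokinesis genes Anln (0.69), Ect2 (0.67) and Racgap1 (0.55), for a ring scaffold and for a pair of regulators of the small GTPase that builds the ring, were called, with adjusted p of 0.00447, 0.0238 and 0.0102. Mki67, the gene of the proliferation antigen that coats mitotic chromosomes, measured 9.27, 9.84 and 9.42 and then 9.38, 9.88 and 9.0 in parental tumours, and 9.99, 9.93 and 10.44 and then 10.05, 10.32 and 9.82 in resistant tumours. Parental replicate 2 under IgG (9.84) and under anti-PD-1 (9.88) both exceeded the lowest resistant array (9.82). The difference was 0.63 (SE 0.17, adjusted p = 0.0116). Top2a, the topoisomerase that untangles chromosomes, measured 9.07, 9.40 and 9.11 and then 9.14, 9.79 and 8.69 in parental tumours, against 9.64, 9.70 and 9.94 and then 9.78, 10.08 and 9.65 in resistant tumours. These ranges overlapped and the difference was 0.60 (SE 0.16, adjusted p = 0.0138), but a dimmer probe set of Top2a pointed the other way at -0.26 and the mean of its probe sets was not called, at 0.17. Of 24 called members with several probe sets, 6 had 1 pointing the other way, in 3 of them above the dim level.

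**Figure D3:**
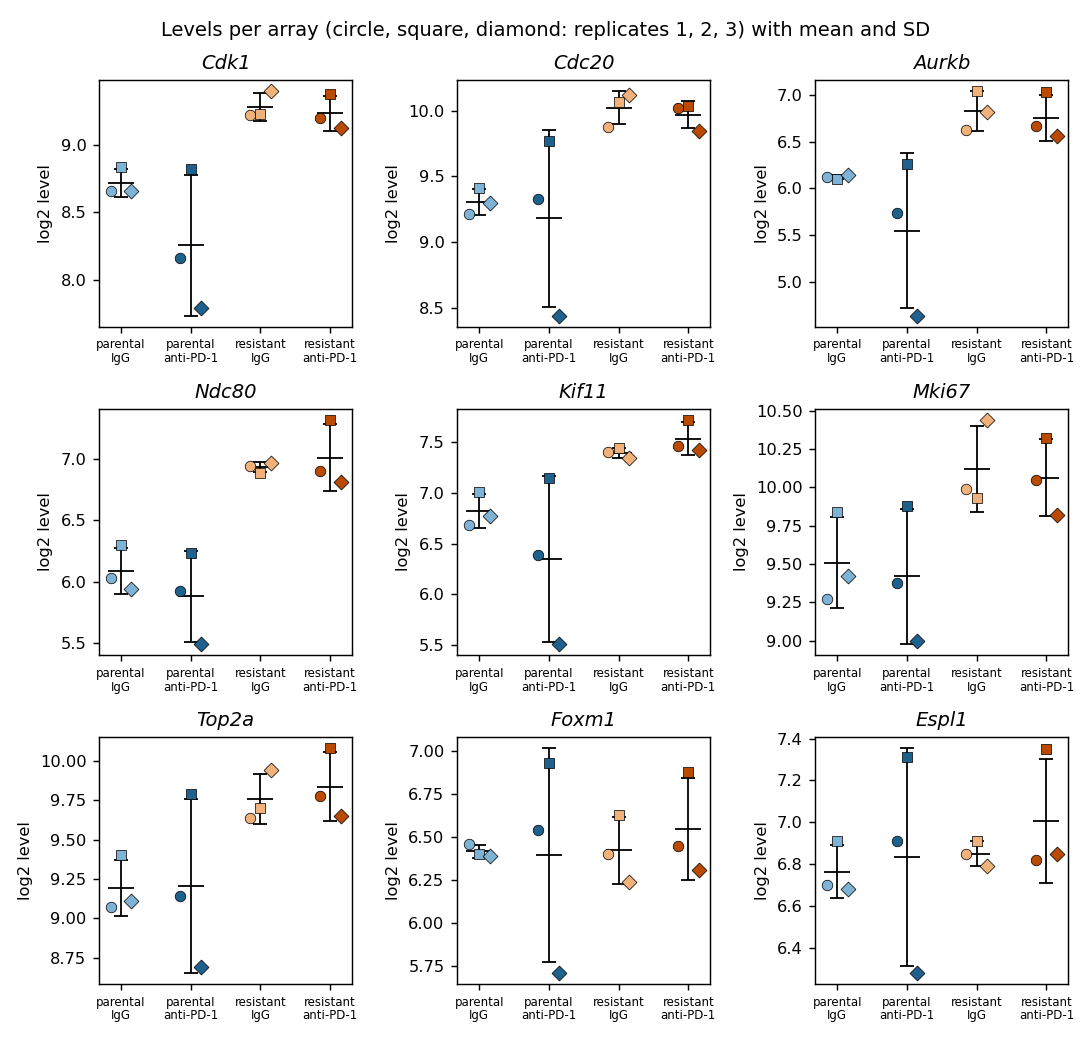
Log2 level (vertical axis) of 9 genes on each of the 12 arrays by group, with circle, square and diamond for replicates 1, 2 and 3 and lines for the group mean and SD. Cdk1, Cdc20, Aurkb, Ndc80 and Kif11 show no overlap between the lines, while Foxm1 and Espl1 overlap.

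Under control IgG alone, 3 resistant arrays against 3 parental ones, 6 of 45 members were called higher and 0 lower, beside 8.93% of all genes called higher, 7.31% lower and 16.2% in either direction. The median difference was 0.56 against 0.07 over all genes, 44 of 45 were above 0, beside 60.9% of all genes, and 26 of 45 had an unadjusted p under 0.05, as had 5124 of 15493 genes. For 38 of 45 all 3 resistant arrays exceeded all 3 parental ones, which held for 23.6% of all genes. The called genes were Cenpk (0.85, SE 0.20, adjusted p = 0.0171), Ndc80 (0.84, SE 0.18, adjusted p = 0.0119), Cdc25c (0.78, SE 0.20, adjusted p = 0.022), Cdca8 (0.74, SE 0.20, adjusted p = 0.0314), Spc24 (0.71, SE 0.19, adjusted p = 0.0314) and Aurka (0.53, SE 0.16, adjusted p = 0.0428). Cdk1 differed by 0.56 (adjusted p = 0.0802), Aurkb by 0.71 (0.145), Cdc20 by 0.72 (0.0754), Kif11 by 0.57 (0.216), Mki67 by 0.61 (0.0975) and Top2a by 0.57 (0.116), none called.

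The count under IgG moved with single arrays, and all 12 arrays share 1 estimate of spread. Without parental anti-PD-1 replicate 3, which is in neither group of this comparison, 29 members were called with the same median of 0.56, beside 13.0% of all genes. Without parental anti-PD-1 replicate 2 the count was 19, and a fit on the groups compared alone gave 30. Leaving out one of the arrays compared gave 1 call (replicate 1 of the parental or 2 of the resistant arrays), 2 calls (parental 3 or resistant 1) or 4 calls (parental 2 or resistant 3). The share of all genes is given for the count of 29 only, so the other counts do not separate the members from all genes. The median difference lay between 0.51 and 0.62 whichever array was left out. Ndc80 alone was called whichever array was left out (0.77 to 0.95), and over all probe sets of a gene Cenpk, Aurka and Cdca8 (0.26, 0.28 and 0.73) lost the call.

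Under anti-PD-1, on arrays that share none with the comparison under IgG, 32 of 45 members were called higher in resistant tumours and 0 lower, beside 21.6% of all genes called higher, 11.9% lower and 33.5% in either direction. The median difference was 0.79 (range 0.15 to 1.53) against 0.07 over all genes, all 45 were above 0, beside 59.3% of all genes, and 11 of 45 were at least 2-fold higher, as were 313 of 15493 genes. All resistant arrays exceeded all parental ones for 30 of 45, as for 29.9% of all genes. Kif20a had the largest difference (1.53, SE 0.32, adjusted p = 0.00419), followed by Cenpk (1.44), Cdc25c (1.21), Aurkb (1.21), Kif11 (1.18), Cenpa (1.14), Ndc80 (1.13), Birc5 (1.09), Bub1 (1.07) and Ttk (1.04). Their adjusted p lay between 0.000526 for Cenpk and 0.0188 for Bub1. Cdk1 (0.98, adjusted p = 0.00413) and Cdc20 (0.79, adjusted p = 0.033) were called, while Mki67 (0.64, adjusted p = 0.0549) and Top2a (0.63, adjusted p = 0.0568) were not. With each array centred on its median both were called, at adjusted p of 0.0264 and 0.0283.

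Parental anti-PD-1 replicate 3 was the lowest of all arrays for each of the 45 genes. Without it 23 of 45 were called higher, beside 18.7% of all genes, and the median was 0.45. Kif20a then differed by 1.08 (adjusted p = 0.00316), Cenpk by 1.19 (adjusted p = 0.000751) and Foxm1 by -0.19 (adjusted p = 0.454). Resistant anti-PD-1 replicate 2 was the highest of its group for all 45, and without it the count was 12, beside 16.3% of all genes. Without resistant anti-PD-1 replicate 1 the count was 21, for which no share of all genes is given. Called whichever array was left out were 12 genes: Ccnb2, Cdc25c, Cdk1, Cenpa, Cenpk, Kif11, Kif20a, Kif4, Mad2l1, Ndc80, Spc24 and Ttk. With the mean of all probe sets of a gene, Ttk (0.55, limma adjusted p = 0.061) and Bub1 (0.56, limma adjusted p = 0.0568) lost the call. The other, dimmer probe set of Ttk differed by 0.06 under anti-PD-1. With the muscle list as a covariate 11 of 45 were called under anti-PD-1 and 35 of 45 over both antibodies, beside 12.5% and 22% of all genes. The median difference under anti-PD-1 was 0.79 with the covariate too, and genes that lost the call differed by 1.14 (Kif11), 1.06 (Birc5), 1.04 (Aurkb) and 1.00 (Bub1). Muscle levels did not overlap between the lines under anti-PD-1. There 4 of 20 muscle markers were called lower and 0 higher (median -2.27), beside 11.9% of all genes called lower. Under anti-PD-1 this fit therefore cannot separate muscle content from the line, and no conclusion is drawn from it. Between the lines over both antibodies, 25.2% of all genes were called higher in resistant tumours and 15% lower. Muscle markers were called lower for 1 and higher for 0 of 20 (median -0.88, 0 of 20 above 0). T and NK cell markers were called lower for 9 of 17 and higher for 0 (median -0.52, 1 of 17 above 0). Epithelial markers were called lower for 6 and higher for 1 of 17 (median -0.22). Macrophage markers were called lower for 3 and higher for 2 of 15, fibroblast markers lower for 1 and higher for 2 of 15, and endothelial markers 1 each way of 14. Muscle, macrophage, fibroblast and endothelial counts over both antibodies lie near or under the shares over all genes and are not read as a result about those cells. The part of these markers and of RNA integrity in the line difference was not tested.

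Anti-PD-1 against IgG in parental tumours addressed treatment in the line that is not resistant. No member was called in either direction (0 of 45), where 2.27% of all genes were called lower, 1.23% higher and 3.5% in either direction, and 4 of 45 had an unadjusted p under 0.05, as had 3400 of 15493 genes. The median difference was -0.27 against -0.01 over all genes and 7 of 45 were above 0, beside 48.5% of all genes. The anti-PD-1 and IgG arrays overlapped for every member, while 13.4% of all genes were lower and 9.12% higher without overlap. Mad2l1 had the smallest p, with 9.02, 9.29 and 8.97 under IgG and 8.39, 9.0 and 8.12 under anti-PD-1 (-0.59, SE 0.19, adjusted p = 0.102), followed by Cenpk (-0.49, SE 0.20, adjusted p = 0.19) and Cdca3 (-0.53, SE 0.23, adjusted p = 0.201). Cdk1 differed by -0.46 (adjusted p = 0.213), Aurkb by -0.57 (0.314), Cdc20 by -0.13 (0.818), Ndc80 by -0.21 (0.552), Kif11 by -0.47 (0.398), Mki67 by -0.09 (0.864) and Top2a by 0.01 (0.982).

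The 3 parental arrays under anti-PD-1 were far apart from each other. The mean over the 45 genes, each taken relative to its own mean, was -0.39, 0.07 and -1.05 on replicates 1, 2 and 3, against -0.26, -0.05 and -0.28 under IgG. Replicate 2 was the highest and replicate 3 the lowest of the group for all 45 genes, and the SD within this group was the largest of the 4 groups for all 45, with a median of 0.55 against 0.16, 0.10 and 0.22 in parental IgG, resistant IgG and resistant anti-PD-1 tumours. These genes move together and do not count as 45 separate observations. Without replicate 3 the median treatment difference was 0.04, with 24 of 45 above 0 and 0 called. Without replicate 2 it was -0.56 and 6 of 45 were called lower. The share of all genes called lower in that fit is not given here, so this count is not read as a result about the members. On replicate 3 the muscle list stood at 10.85, fibroblasts at 10.01, endothelial cells at 7.06 and macrophages at 8.41, each the highest of the 12 arrays, while the epithelial list, at 7.93, was the lowest of the parental arrays. T and NK cell markers were above 0 for treatment in parental tumours for 17 of 17 (median 0.40, 1 called higher) and stood at 5.02, 6.06 and 5.69 on its 3 anti-PD-1 arrays. The part of these markers in the low mitosis values was not tested. With the muscle covariate 0 members were called for treatment, as without it, so that count does not bear on the question.

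**Figure D4:**
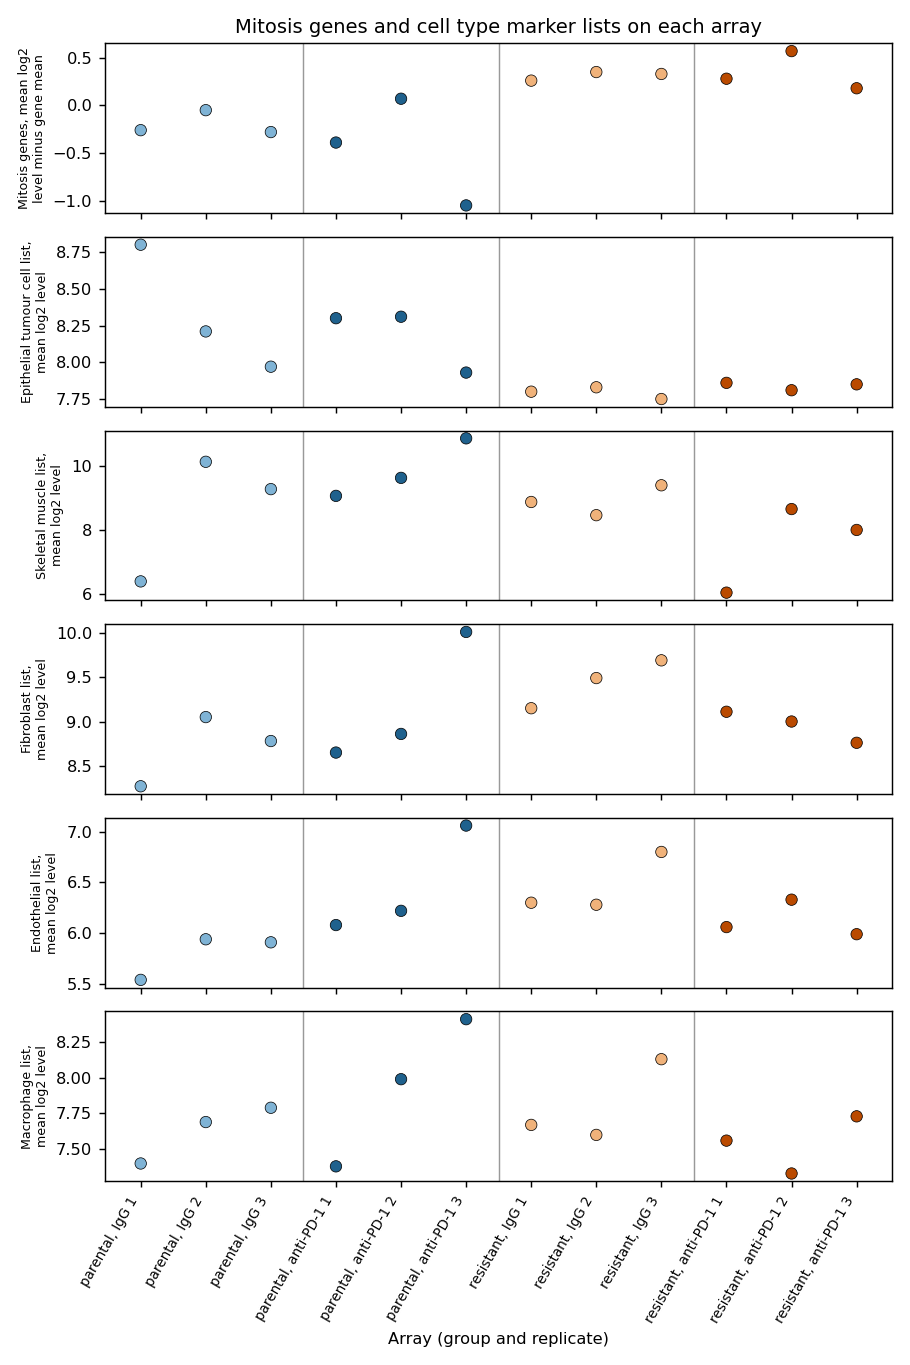
Mean over the 45 mitosis and spindle genes relative to each gene's mean (top) and mean log2 level of 5 cell type marker lists (lower panels) on each array. Parental anti-PD-1 replicate 3 is the lowest array for the mitosis genes at -1.05 and the highest for muscle, fibroblast, endothelial and macrophage markers.

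In resistant tumours the levels under anti-PD-1 and IgG were close, with a mean over the members of 0.26, 0.35 and 0.33 under IgG and 0.28, 0.57 and 0.18 under anti-PD-1. The differences of the 45 genes ran from -0.14 to 0.16 with a median of 0.02, beside 0.03 over all genes, and 30 of 45 were above 0, beside 58.6% of all genes. None was called (0 of 45, and 0.0% of all genes by limma), and 0 of 45 had an unadjusted p under 0.05, which 738 of 15493 genes had. The smallest p-values were those of Espl1 (0.16, SE 0.22, adjusted p = 0.927), Kif4 (-0.14, SE 0.20, adjusted p = 0.927) and Incenp (0.13, SE 0.19, adjusted p = 0.927). Cdk1 (-0.05), Aurkb (-0.07), Cdc20 (-0.05), Mki67 (-0.06), Ndc80 (0.08), Top2a (0.08) and Kif11 (0.14) differed by less than their SE, from 0.18 to 0.32. At that precision small changes of either sign were not detectable, and changes well above these SE could also have gone uncalled.

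**Figure D5:**
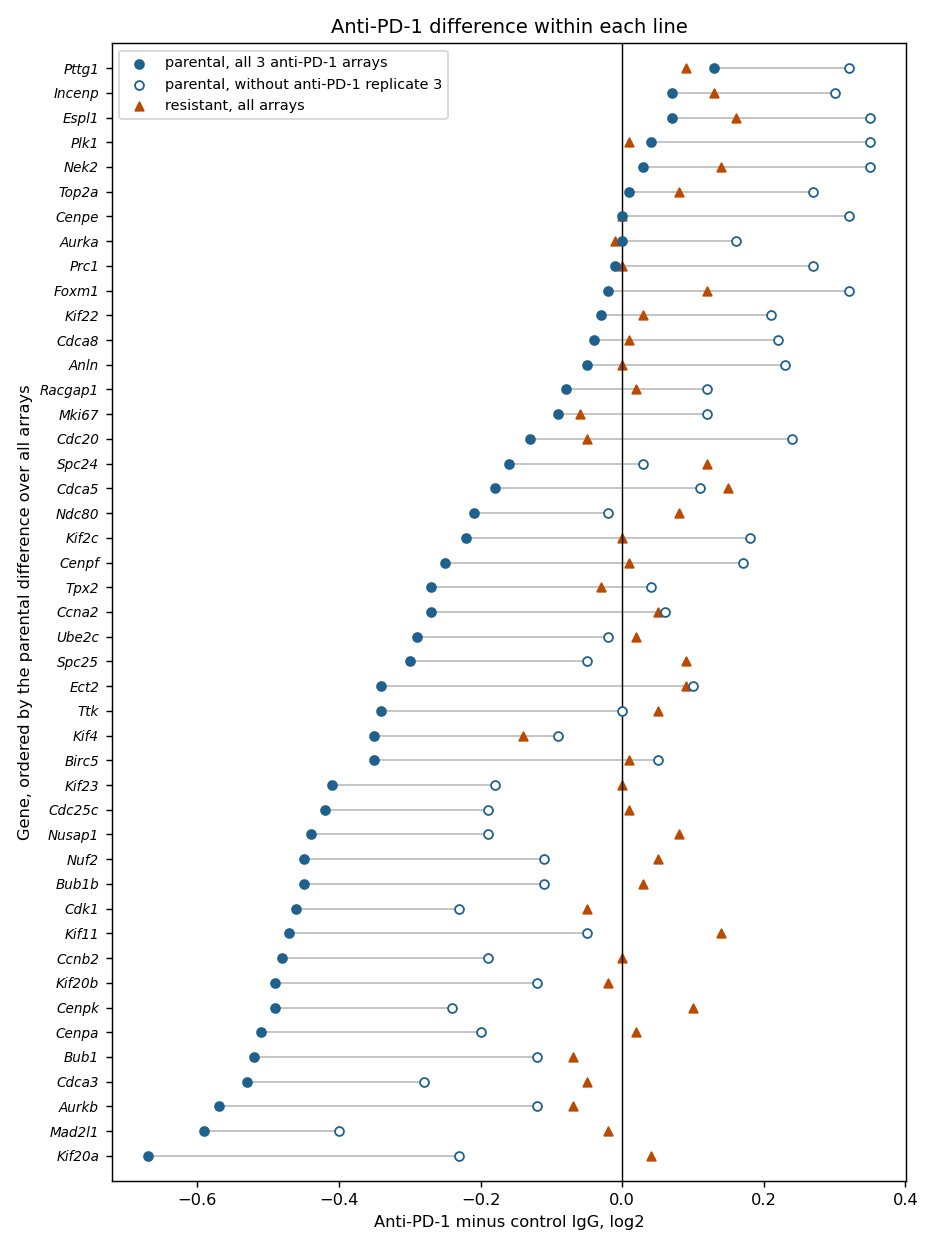
Anti-PD-1 minus IgG in log2 (horizontal axis) for each gene in parental tumours with all 3 anti-PD-1 arrays (filled circles), in parental tumours without anti-PD-1 replicate 3 (open circles) and in resistant tumours (triangles). Parental medians are -0.27 with and 0.04 without that array, and resistant values stay between -0.14 and 0.16.

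The interaction asked whether the treatment difference itself differed between the lines, and equally whether the line difference differed between antibodies. It was called for 0 of 45 members and 0.0% of all genes, with an unadjusted p under 0.05 for 0 of 45 members and 2713 of 15493 genes. The median was 0.32 against 0.03 over all genes, and 41 of 45 were above 0, beside 54.7% of all genes. However, without parental anti-PD-1 replicate 3 the median was -0.01 with 22 of 45 above 0. The smallest p-values were those of Mad2l1 (0.57, SE 0.26, adjusted p = 0.289), Cenpk (0.58, SE 0.28, adjusted p = 0.31) and Nusap1 (0.52, SE 0.31, adjusted p = 0.397). The larger count under anti-PD-1 than under IgG, 32 against 6, is therefore not shown to be a difference in the effect of the line.

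Across the 12 arrays the members followed each other closely, which is described here without a test. Pearson's r between 2 members had a median of 0.919 over 990 pairs (0.423 to 0.995), and 0.909 after the group means were removed, so the likeness did not rest on the line difference alone. All pairs were computed over the same 12 arrays, 1 of which was the lowest for all 45 genes. The group of that array also had the largest SD for all 45, so it weighs most in the value without group means. No r over all genes is given, so the likeness is not shown to be particular to these genes. Birc5 (0.995) and Ttk (0.992) were most like the mean of the other members. Foxm1 was least like it (0.647), then Espl1 (0.713), Cdca3 (0.759), Cdca5 (0.840) and Incenp (0.845). Without parental anti-PD-1 replicate 3 these became 0.214, 0.441, 0.424, 0.601 and 0.694, while Birc5 stayed at 0.989.

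Other genes of mitosis, listed by role with earlier results of these data known, were compared between the lines over both antibodies, where 25.2% of all genes were called higher and 15% lower. Of 33 tested genes of the centromere and kinetochore outside the list, 26 were called higher and 0 lower (median 0.52), and these include Ska1, which keeps kinetochores on microtubules, at 1.60 (adjusted p = 0.000538), and Cenpp at 1.03, a partner of Cenpk in the centromere network. Of 32 other genes of the spindle and cytokinesis, 20 were higher and 4 lower (median 0.39), with the augmin subunit genes Haus1 at 0.69 and Haus8 at 0.62 and the spindle gene Dlgap5 at 0.71. Of 20 condensin and cohesin genes, 11 were called higher and 2 lower (median 0.26). The lower count is under the 15% of all genes and is not read as a result about this list. The condensin gene Ncapg differed by 0.92 and Pds5a, a cohesin regulator, by -0.68.

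Subunits of the anaphase ubiquitin ligase and its inhibitors were called higher in 10 of 17 and lower in 0 (median 0.37), beside the same 25.2% and 15% of all genes, led by Anapc10 at 1.05 (SE 0.08) and Cdc23 at 0.69. Other genes of mitotic entry were higher in 11 and lower in 1 of 19 (median 0.43). These include Plk4, the kinase of centriole duplication, at 1.03, the mitotic kinase gene Pbk at 1.29 and Wee1, the kinase that holds Cdk1 back, at 0.62. Transcription factors of the cell cycle were higher in 13 and lower in 1 of 19 (median 0.41), with Tfdp1, the partner of E2F factors, at 0.75 and Rbl2, a pocket protein of DREAM, at 0.34. In parental tumours under anti-PD-1, 3 ligase subunits and 1 kinetochore gene were called lower than under IgG, Cdc26 (-0.40), Anapc10 (-0.49), Anapc16 (-0.37) and Zwint (-0.49), beside 2.27% of all genes, and 0 were without replicate 3 of that group.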

How the data were processed

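RNA from whole tumours was hybridised to 12 Affymetrix whole-genome mouse arrays, 3 per group. The authors deposited log2 levels per probe set; the background correction, normalization and summarization are not given in the sources used here, and array medians of 4.75 to 4.89 show that the deposited log2 values were already on a common scale. Of 45101 probe sets, 64 are controls, 34945 name 1 gene, 932 several and 9160 none in the platform annotation used. Of those that name 1 gene, 34741 were matched by gene number to a RefSeq symbol. The brightest probe set stood for a gene, and 15493 of 18193 genes exceeded 3.32, the 25th percentile of all values, on at least 3 arrays.

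The model, fitted by limma (version 3.58.1; R version 4.3.3), gave each group its own mean over 12 arrays, with 8 residual degrees of freedom and a prior of 2.98, and Benjamini-Hochberg adjustment over all genes tested; every adjusted p is two-sided and comes from limma. The script was tested on simulated data. Tables and plots were made with Python 3.11.15 and matplotlib 3.10.9. Correlations between arrays ran from 0.959 to 0.997, with 0 identical pairs. Genes named were all called members of a comparison, or the 10 largest differences where more were called, with a fixed set of landmark genes, the 3 smallest p-values where none was called, and up to 4 genes per list; other members are named for role and were chosen after their values were seen. Members and lists were chosen with earlier results of these data known. Alternatives were other scalings, dim filters, probe set choices, variance models and array weights, fits on the groups compared, a replicate block, a muscle covariate and leaving out arrays. Promoters were not used here for Ccna2, Cdc25c, Foxm1, Aurkb, Incenp, Spc24, Kif20a and Tpx2.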

Additional observations from a re-analysis of the deposited data

How the results depend on the processing

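No direction of a called named result turned: of 63 named results, 32 were called, 0 of these reversed under any alternative run, and 20 kept the call under every one. The count over both antibodies stayed between 32 and 42 of 45 with any array left out. The count under IgG (6) was 27 with array weights, 30 on the groups compared alone, 16 with a replicate block, 16 without both arrays that stand apart and 1 to 29 with an array left out. The count under anti-PD-1 (32) was 21 with array weights, 10 on the groups compared alone, 11 with the muscle covariate, 37 with the replicate block and 12 to 41 with an array left out. Treatment in parental tumours gave 1 call, lower, with the replicate block and 0 to 6 with an array left out. Where no share of all genes is given for a setting, these counts show only how far the calls moved. The replicate numbers were not taken as a pairing: of 18 same-numbered pairs, 14 had a correlation of deviations over 0.1 (-0.21 to 0.64). For treatment in resistant tumours all 3 such pairs were over 0.1 (0.11, 0.12 and 0.17), and the block called 0 members there. With the block Mki67 and Top2a were called under anti-PD-1 (limma adjusted p = 0.04 and 0.0301).

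No named result that changed sign was called. Without parental anti-PD-1 replicate 3 the parental treatment median went from -0.27 to 0.04 (Birc5 from -0.35 to 0.05, Ect2 from -0.34 to 0.10), the interaction median from 0.32 to -0.01, and Foxm1 under anti-PD-1 from 0.15 to -0.19. In parental tumours, treatment gave Top2a -0.013 with arrays centred and -0.016 with the muscle covariate (-0.28 to 0.27 with an array left out), Cdc20 0.18 with weights and 0.19 without both arrays (-0.42 to 0.24), and Mki67 0.095 with weights and 0.0 without both (-0.32 to 0.12). In resistant tumours it gave Aurkb 0.003 with the mean of probe sets and 0.023 with weights (-0.21 to 0.033), Cdc20 0.002 and 0.022 (-0.12 to 0.007), and Mki67 0.026 with weights and 0.035 with the muscle covariate (-0.19 to 0.1). With an array left out, Cdk1 ran from -0.12 to 0.012, Espl1 from -0.015 to 0.25, Ndc80 from -0.078 to 0.18 and Top2a from -0.045 to 0.17. The cause of these shifts was not tested. With 3 arrays a group, small differences were not detectable.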

Other observations

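Genes of DNA replication and S phase, which act before mitosis, were higher in resistant than in parental tumours over both antibodies for 32 of 42 tested and lower for 0 (median 0.53, all 42 above 0), with limma adjusted p under 0.05, beside 25.2% and 15% of all genes. Pcna, the sliding clamp of DNA polymerases, differed by 0.65 (SE 0.07), the polymerase subunit gene Pole2 by 1.08 (SE 0.11), and the helicase subunit genes Gins2 by 1.49 (SE 0.15) and Gins4 by 0.70 (SE 0.06). In parental tumours, 4 of the 42 were called lower under anti-PD-1 than under IgG, Pcna by -0.46, Gins4 by -0.40, and the clamp loader genes Rfc4 by -0.76 and Rfc3 by -0.44, beside 2.27% of all genes, and 0 were called without parental anti-PD-1 replicate 3.

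Genes of G1 control went both ways between the lines, with 3 of 13 called higher and 5 lower (median -0.20). The share called higher, 23.1%, is near the 25.2% of all genes, and 15% of all genes were called lower. Cdkn2a and Cdkn2b, which encode inhibitors of the G1 kinases, differed by -3.60 (SE 0.18) and -3.05 (SE 0.22), and the cyclin gene Ccnd2 by -1.91 (SE 0.09). Cdkn2c, another inhibitor gene of that family, differed by 1.02 (SE 0.08).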
